A study of Rattus norvegicus with 9 samples.

Results

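The genes described here act in mitosis and chromosome segregation, the steps in which a cell condenses its duplicated chromosomes, attaches them to a spindle, parts them and divides. They were chosen from a list of 50 genes of known mitotic function, by taking every probe set on a rat expression array whose gene symbol in the platform annotation was on that list. The array measured 31 of the 50 genes with 40 probe sets, among 10411 genes with a symbol of their own and 15866 probe sets without the control probe sets. The other 19 genes (Anln, Bub1, Ccna2, Ccnf, Cdc25c, Cenpa, Cenpf, Ect2, Kif11, Kif23, Kif4a, Ncaph, Nek2, Nusap1, Pbk, Prc1, Smc2, Tpx2 and Ttk) had no probe set of their own in that annotation and were not analysed here. Of the 31 genes, 25 had 1 probe set and 6 had several, and the probe set with the highest mean signal stood for a gene with several. All 31 genes passed the filter on low signals, 29 of them with a signal above the array's 40th percentile on all 9 arrays. Foxm1 was above it on the 6 BSN and PTN arrays and Cenpe on the 3 PTN arrays only, so they were tested because of the media in which they are high.

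The study asked how gene expression differs between conditions in which isolated ureteric buds branch and conditions in which they do not. This epithelial bud grows and divides into the collecting duct tree of the kidney. Buds of embryonic day 13 Sprague-Dawley rats were cultured without mesenchyme for 4 days in a gel mixed from type 1 collagen (50%) and Matrigel low in growth factors (50%), and each sample pooled the RNA of 3 buds. Each of 3 media was sampled 3 times, as biological replicates by the series' design text, and each sample was read on 1 array. All media held 250 ng/ml FGF1 and 125 ng/ml GDNF, growth factors that act on ureteric bud epithelium. The BSN medium added conditioned medium of a metanephric mesenchymal cell line, the HRG medium added 500 ng/ml of recombinant human heregulin alpha, a ligand of ErbB receptors, and the PTN medium added pleiotrophin, a secreted factor that binds heparin, isolated from such conditioned medium and used at about 3 µg/ml. The labels contradict each other on PTN: the title lists it with BSN under branching and HRG alone under non-branching, but the descriptions of the PTN samples say non-branching. No group received FGF1 and GDNF alone, so a rise in one medium and a fall in another cannot be told apart.

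Most of these genes are transcribed late in the cell cycle. A repressor complex holds many of them down in resting cells, and the transcription factors B-Myb and FoxM1 raise them as cells approach division, so that their transcripts often rise and fall together with the share of dividing cells. In the developing kidney, cell division in the ureteric bud is concentrated in the tips, where GDNF acts through the receptor Ret. In RNA from whole buds, fewer dividing cells and less transcript per dividing cell cannot be told apart.

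Signals were in linear units that had been scaled alike on every array, with a mean after trimming of 2500.48 to 2500.58. Correlations of log2 signals were 0.946 to 0.979 between arrays of a group and 0.882 to 0.937 between groups. Of 11 measured markers of ureteric epithelium, 9 (Cdh1, Epcam and Ret among them) were above the 40th percentile on all arrays and Pax8 on none. The signal summed over the 11 was 162015 to 173439 under BSN, 158186 to 173872 under HRG and 134979 to 159164 under PTN. Epcam held a large part of this sum, with means of 63332, 61147 and 55695 under BSN, HRG and PTN. Single markers moved in both directions, as Krt19 (means of 2925, 10622 and 2181) and Lhx1 (4839, 1907 and 4734) did. Markers of mesenchyme and stroma summed to 3501 to 4384, 3466 to 3966 and 3363 to 4069, with none of 9 above the percentile on all arrays and Wt1, Pdgfra, Pdgfrb, Lum and Postn on none. Those of endothelium summed to 2366 to 2458, 2052 to 2461 and 2046 to 2619.9, with 1 of 5 (Esam) above it on all arrays and Pecam1, Flt1 and Vwf on none. The blood markers summed to 2160.1 to 2409 under BSN, 1369 to 1497 under HRG and 1194 to 1736 under PTN, with none of 5 above it on all arrays and Ptprc, Hbb and Alas2 on none. The summed signal of 6 neuronal markers was 8349 to 10062 under BSN, 3186 to 4298 under HRG and 6848 to 8926 under PTN, with Gap43 above the percentile on all arrays and Nefl on none. The ratio of 3' to 5' signal of actin, a measure of how much of the transcript the amplified RNA covers, was 28.0 to 37.8 under BSN, 18.6 to 29.6 under HRG and 15.3 to 18.1 under PTN. The same ratio of GAPDH was 3.75 to 5.83 for BSN, 2.01 to 3.49 for HRG and 2.97 to 6.85 for PTN, with every HRG array below every BSN array (exact permutation test, two-sided p = 0.1, the smallest that 3 against 3 arrays allow). The mean signal of Ret, the GDNF receptor of the bud tips, was 13512, 918 and 18756 in the same order of media. Ret, the neuronal markers and these ratios moved with the media, and their part in the results was not tested.

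With heregulin, most of the mitosis genes had lower signals than in either other medium. Against BSN, 22 of 31 genes (71%) fell and 0 rose at an adjusted p under 0.05 (limma, Benjamini-Hochberg), where 9.16% of all 7458 genes tested fell and 7.07% rose. At an unadjusted p under 0.05, limma gave 25 genes lower and 0 higher, where 15.8% of all genes tested were lower and 12.2% higher. The median change was -0.81 on the log2 scale, a 1.75-fold lower signal, beside -0.04 over all genes tested. On 24 of 31 genes every HRG array was below every BSN array, as on 19.4% of all genes on the array. Without Cenpe and Foxm1, 21 of 29 genes fell.

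Against PTN, 27 of 31 genes (87.1%) fell with heregulin and 0 rose, where 12.1% of all genes tested fell and 14.7% rose. At an unadjusted p under 0.05, limma gave 30 genes lower and 0 higher, where 16.9% of all genes tested were lower and 21.9% higher. Their median change was -1.08, a 2.12-fold lower signal, beside 0.08 over all genes tested. Every HRG array was below every PTN array on 29 of 31 genes, against 14.3% of all genes. Without Cenpe and Foxm1, 25 of 29 genes fell. Both comparisons use the same HRG arrays and are not independent of each other.

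Pleiotrophin differed less from the conditioned medium. In PTN, 9 of 31 genes (29%) were higher than in BSN and 1 (3.23%) was lower, where 9.08% of all genes tested were higher and 13.5% lower. The median change was 0.34, a 1.26-fold higher signal, beside -0.11 over all genes tested. On 16 of 31 genes every PTN array was above every BSN array, as on 11.1% of all genes. Without Cenpe and Foxm1, 8 of 29 genes were higher and 1 lower. After centring each array on its median, which moved the median of all genes in this comparison to 0.01, 15 mitosis genes were higher and 0 lower, where 13.2% of all genes tested were higher and 8.69% lower. Of all calls, 60.3% rather than 40.2% were then higher. The genes that gained a call under centring were Aurka, Bub3, Cdc20, Cks2, Kif20a and Racgap1, and Mybl2 lost its call. Centring also moved the share of higher calls over all genes in the comparison of HRG with PTN from 54.7% to 43.4%, while the mitosis genes then had 28 lower and 0 higher, where 14.5% of all genes tested were lower and 11.1% higher. Leaving out PTN replicate 1 gave 11 mitosis genes higher and 3 lower than in BSN, and leaving out BSN replicate 3 gave 6 higher and 0 lower. The shares of all genes called were not counted in these fits, so the counts cannot be set against them.

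The mean signals ran in the order PTN, BSN, HRG from high to low in 24 of the 31 genes, an order that 14.8% of all genes on the array had. Another 6 genes (Cdca3, Cdca8, Foxm1, Kif2c, Mybl2 and Pttg1) had BSN highest and HRG lowest, as had 16.5% of all genes on the array. In Cdca3, Cdca8 and Kif2c, BSN and PTN were almost level, and their order changed under median centring. Smc4 had its highest mean in HRG, although its 3 groups overlapped.

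**Figure D1:**
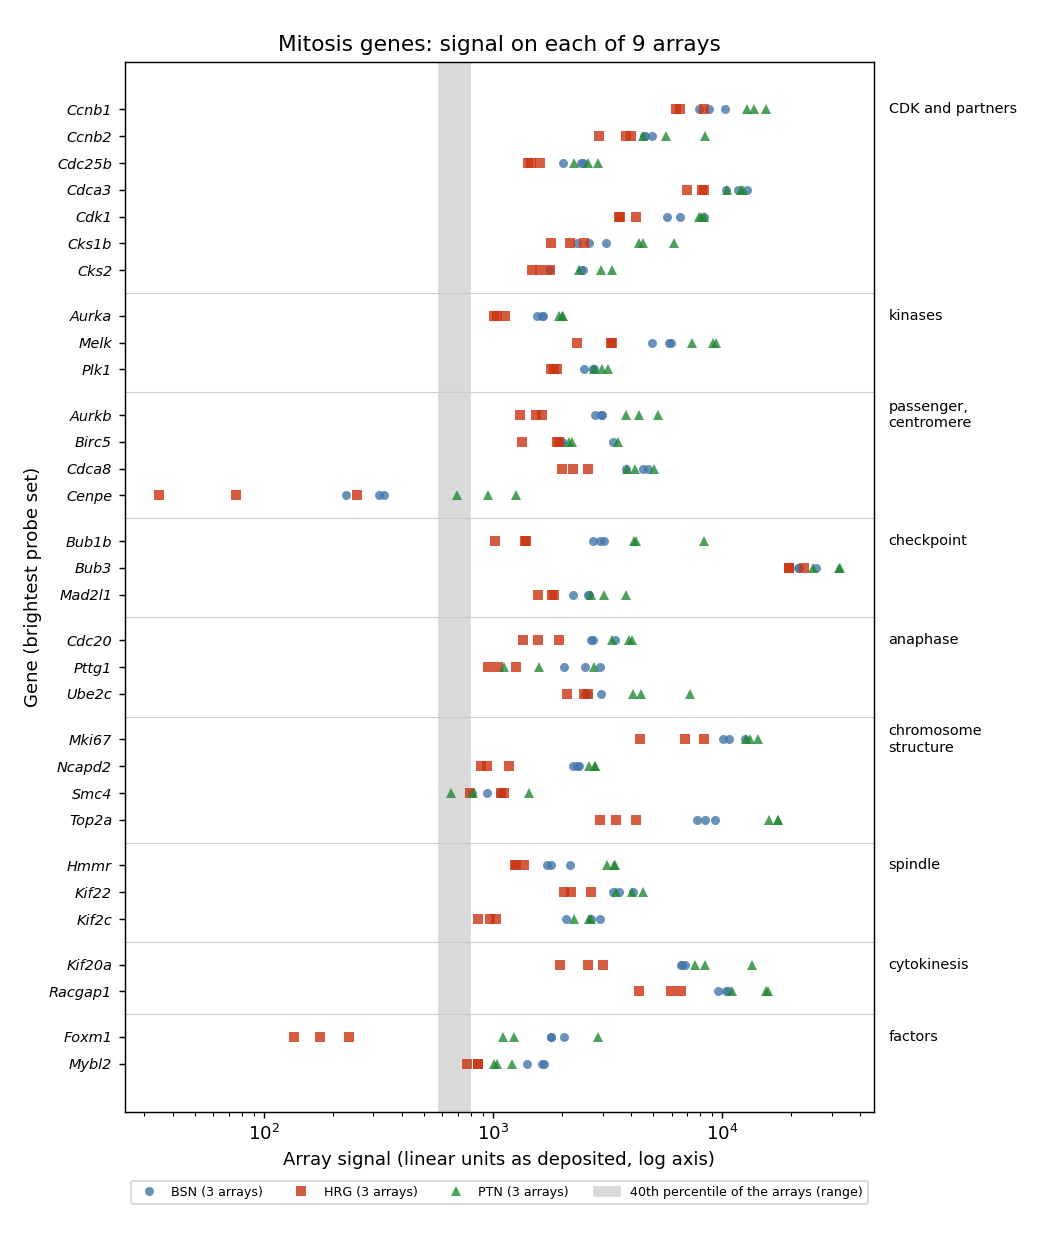
Signal of each of the 31 mitosis genes (rows, grouped by role) on each of 9 arrays, on a log axis in the deposited linear units; circles are BSN, squares HRG and triangles PTN, 3 arrays each, and the grey band spans the arrays' 40th percentiles (580.1 to 788). In 29 genes the squares all lie left of the triangles, and the Foxm1 squares (136 to 235) lie left of the band.

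The level of the whole set on each array shows the same order. The mean log2 signal over the 31 genes was 11.74, 11.72 and 11.71 on the BSN arrays, 10.92, 10.96 and 10.79 on the HRG arrays, and 12.17, 12.09 and 11.97 on the PTN arrays. No array of one medium overlapped those of another, while the mean over all genes ranged from 11.38 to 11.53. HRG replicate 3 had the lowest signal of its group in 21 of 31 genes. PTN replicate 1 had the highest of its group in 13 genes and the lowest in 10.

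**Figure D2:**
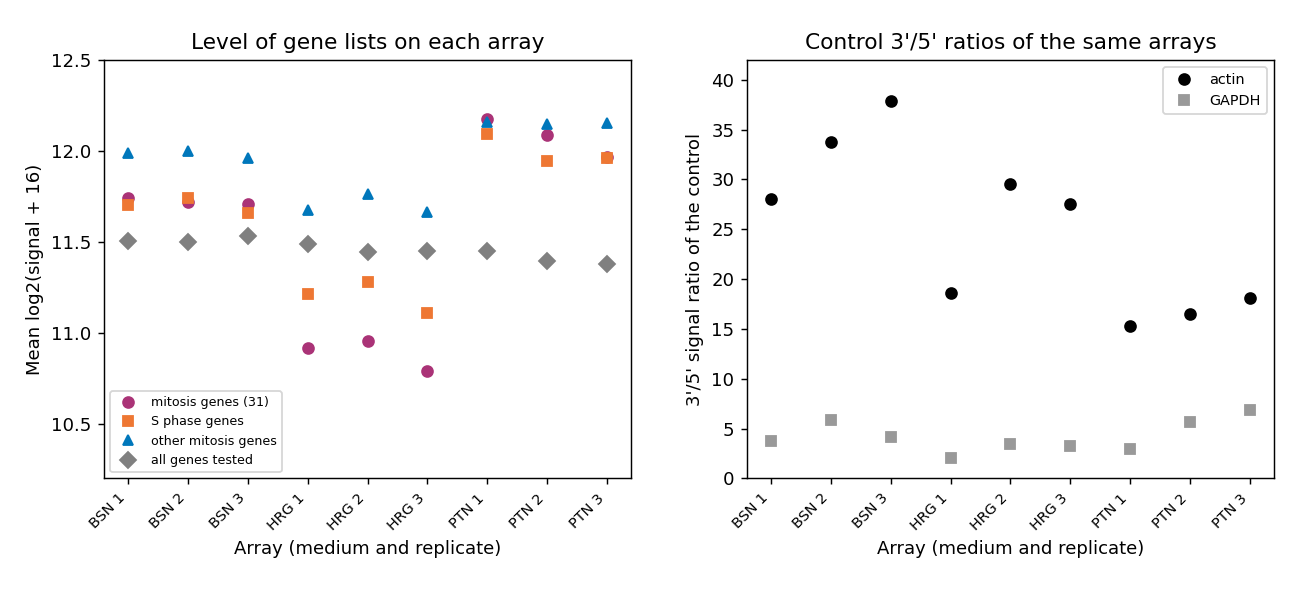
Mean log2(signal + 16) of the 31 mitosis genes on each of 9 arrays, with the mean over all genes of the same array for comparison. The mitosis genes lie between 11.71 and 11.74 under BSN, between 10.79 and 10.96 under HRG and between 11.97 and 12.17 under PTN, whereas all genes lie between 11.38 and 11.53 on every array.

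The promoters of the mitosis genes were searched for the letters that mark late cell cycle genes. The window ran from 250 bases before to 50 bases after the transcription start in the RefSeq table of rat promoters (build GRCr8), and both strands were read. Matches of 2 kinds of short word were counted, the cell cycle genes homology region (TTTGAA, or TTCGAA, which is its own reverse complement), which the MuvB complex recognises, and CCAAT, which NF-Y binds. The table held 27 of the 31 genes with 28 windows, since Kif2c had a pair of starts, and lacked Aurkb, Foxm1, Racgap1 and Ube2c. A match is a description of the letters and shows no binding. Because the genes were chosen for mitotic function, a high share of such words describes the list. A link of the words to the fall with heregulin was not tested.

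The sequences are shown for 3 genes that fell with heregulin (Top2a, Cdk1, Mki67) and for Bub3, which was called against PTN only. The upstream start of Kif2c is also shown, a gene that fell and whose windows held neither word. The sequences read 5′ to 3′ along the gene's strand, and capitals mark the matches, also as their reverse complements TTCAAA and ATTGG. They lie at chr10:84473044-84473343 on the minus strand (Top2a), chr20:19265043-19265342 on the plus strand (Cdk1), chr1:199952544-199952843 on the minus strand (Mki67), chr1:195760282-195760581 on the plus strand (Bub3) and chr5:135899163-135899462 on the minus strand (Kif2c).
Top2a: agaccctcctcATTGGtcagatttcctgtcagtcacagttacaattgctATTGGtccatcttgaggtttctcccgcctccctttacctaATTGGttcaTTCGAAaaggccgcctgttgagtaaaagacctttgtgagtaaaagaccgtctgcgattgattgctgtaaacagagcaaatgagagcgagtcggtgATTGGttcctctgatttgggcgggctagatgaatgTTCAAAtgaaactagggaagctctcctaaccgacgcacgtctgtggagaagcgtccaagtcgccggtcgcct
Cdk1: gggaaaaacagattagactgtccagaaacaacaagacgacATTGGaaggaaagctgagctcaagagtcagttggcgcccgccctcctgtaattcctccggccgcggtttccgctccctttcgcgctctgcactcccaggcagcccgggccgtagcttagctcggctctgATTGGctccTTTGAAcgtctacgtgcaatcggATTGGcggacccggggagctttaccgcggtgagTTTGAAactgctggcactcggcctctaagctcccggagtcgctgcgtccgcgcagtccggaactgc
Mki67: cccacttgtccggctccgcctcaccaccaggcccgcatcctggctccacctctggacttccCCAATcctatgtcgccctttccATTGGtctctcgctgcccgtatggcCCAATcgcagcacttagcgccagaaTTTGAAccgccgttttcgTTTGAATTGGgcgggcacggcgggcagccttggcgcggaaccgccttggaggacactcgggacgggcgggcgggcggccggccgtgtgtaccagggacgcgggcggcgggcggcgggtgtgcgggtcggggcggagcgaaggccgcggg
Bub3: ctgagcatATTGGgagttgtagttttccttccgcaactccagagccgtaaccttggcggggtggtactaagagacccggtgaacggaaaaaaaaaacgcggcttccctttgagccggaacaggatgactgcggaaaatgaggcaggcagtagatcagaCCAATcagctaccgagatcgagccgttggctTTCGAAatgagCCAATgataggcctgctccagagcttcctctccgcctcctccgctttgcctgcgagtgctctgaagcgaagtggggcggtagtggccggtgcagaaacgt
Kif2c: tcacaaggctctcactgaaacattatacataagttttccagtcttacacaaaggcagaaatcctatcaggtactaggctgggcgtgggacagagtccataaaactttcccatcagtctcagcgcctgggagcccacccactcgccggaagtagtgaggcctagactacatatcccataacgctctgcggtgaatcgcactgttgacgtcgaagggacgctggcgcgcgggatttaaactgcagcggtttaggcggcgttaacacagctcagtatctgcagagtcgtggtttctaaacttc

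Top2a, Cdk1 and Mki67 each held 2 matches of the first word, and Bub3 held 1. Of CCAAT, Top2a and Mki67 held 4 matches each, and Cdk1 and Bub3 held 3 each. In Mki67 a TTTGAA and an ATTGG share letters in the capital run TTTGAATTGG. The match of the first word nearest to the start began at position -22 in Top2a, -16 in Cdk1, -99 in Mki67 and -61 in Bub3, counted from the start. Both Kif2c windows held neither.

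Over the 28 windows, 19 (67.9%) held TTTGAA or TTCGAA, against 13.6% of the 9498 windows of genes on the array and 19.7% of all 33465 windows. TTTGAA alone was in 17 windows (60.7%), against 12% and 18.3%. CCAAT was in 21 windows (75%), against 37.1% and 37.5%, and 16 windows (57.1%) held it at least 2 times, against 12.8% and 11.2%. Both words were in 17 windows (60.7%), against 5.65% and 7.95%. Aurka, Melk, Kif2c and Mybl2 held neither. Of these, Aurka, Melk and Kif2c fell with heregulin against both media, and Mybl2 fell against BSN. The listed starts were not checked, so an empty window does not show that the promoter lacks the words. The Aurka window reads atggacag just after its start, where a coding sequence can begin, so it may miss the promoter. The window of Smc4, which passed no test, held both words.

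**Figure D3:**
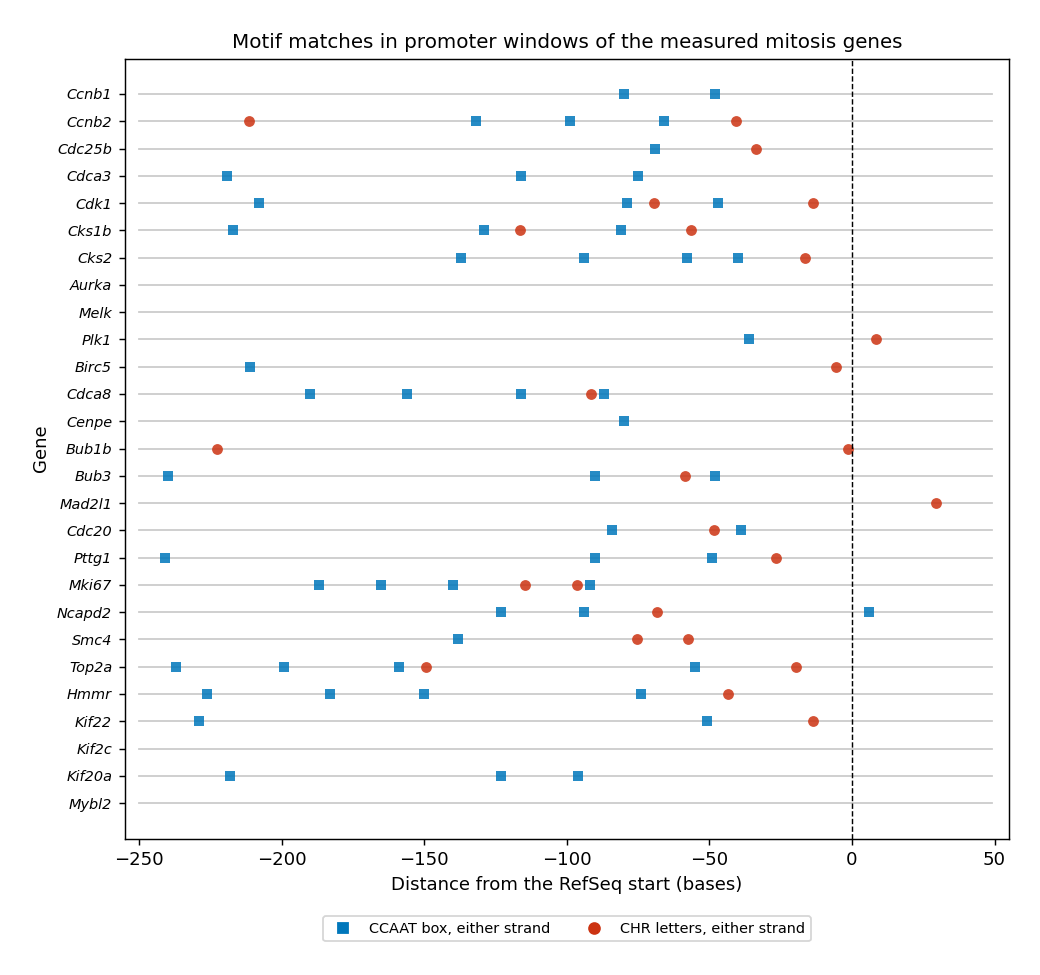
Places of TTTGAA or TTCGAA and of CCAAT matches, on either strand, in the promoter windows of the mitosis genes, drawn by distance in bases from the transcription start; 28 windows of 27 genes. Of the windows, 19 hold the first word and 21 hold CCAAT, and the windows of Aurka, Melk, Kif2c and Mybl2 are empty. The Aurka window may miss the promoter.

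The genes of chromosome structure held the gene with the largest fall against PTN among those above the 40th percentile on all arrays. Top2a encodes topoisomerase II alpha, which untangles the duplicated DNA so that it can be parted. Its signal was 7765, 9295 and 8383 under BSN, 2926, 4214 and 3439 under HRG and 17458.5, 15962 and 17447 under PTN. The 3 media did not overlap, with PTN highest and HRG lowest. It fell 2.42-fold with heregulin against BSN (log2 change -1.27 ± 0.15 SE, adjusted p = 8.36e-05) and 4.84-fold against PTN (-2.28 ± 0.15 SE, adjusted p = 4.93e-07), and was 2.00-fold higher in PTN than in BSN (adjusted p = 0.000661). A second probe set of Top2a gave falls of 2.00-fold and 4.66-fold and a 2.34-fold higher signal in PTN than in BSN, with each difference called.

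Ncapd2, a subunit of condensin, which compacts the chromosomes, had signals of 2356, 2322 and 2229 under BSN, 1172, 883 and 943 under HRG and 2619.8, 2792 and 2789 under PTN. It fell 2.30-fold against BSN (adjusted p = 8.56e-05) and 2.73-fold against PTN (adjusted p = 1.19e-05), while PTN and BSN differed by 0.25 ± 0.14 (SE) on the log2 scale (adjusted p = 0.222). Mki67 encodes Ki-67, the coat protein of mitotic chromosomes that is widely used to stain dividing cells. Its signal was 12579, 10677 and 10038 under BSN, 6864, 8314 and 4364 under HRG and 13247, 14305 and 12735 under PTN. All HRG arrays were below all others, and the fall was 1.75-fold against BSN (adjusted p = 0.0138) and 2.13-fold against PTN (adjusted p = 0.00152). Without BSN replicate 1 the call against BSN was lost (adjusted p = 0.0619). Smc4, the condensin ATPase, had 1068, 939 and 806 under BSN, 1085, 1115 and 794 under HRG and 815, 1425 and 655 under PTN. It passed no test (adjusted p = 0.885, 0.797 and 0.95), and the spread within PTN was wider than any difference between the means.

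The cyclin-dependent kinase that drives entry into mitosis is Cdk1, with B-type cyclins as its partners. Cdk1 had signals of 6546, 8339 and 5756 under BSN, 4182, 3571 and 3544 under HRG and 8308, 8039 and 7879 under PTN. HRG was below both other media on every array, while the BSN and PTN arrays overlapped. It fell 1.81-fold against BSN (adjusted p = 0.00172) and 2.15-fold against PTN (adjusted p = 0.00017). Ccnb1 encodes cyclin B1. Its signal was 8777, 10284 and 7918 under BSN, 6289.7, 8293 and 6508 under HRG and 13783, 15484 and 12759 under PTN. HRG and BSN overlapped and were not called apart (1.28-fold, adjusted p = 0.137), while Ccnb1 was 2.00-fold lower in HRG than in PTN (adjusted p = 0.000374) and 1.56-fold higher in PTN than in BSN (adjusted p = 0.00937). A second, dimmer probe set of Ccnb1 had 1387, 1485 and 1170 under BSN, 681, 737 and 650 under HRG and 2994.5, 1607 and 2376 under PTN. On it every HRG array was below every BSN array, unlike on the brightest. Its signals on HRG replicates 1 and 3 were below the array's 40th percentile. It passed the filter through BSN and PTN, so its lower signal in HRG is given without a fold or a p.

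Cks1b and Cks2 encode small proteins that bind the kinase. Cks1b had 2621, 2332 and 3092 under BSN, 1793, 2173 and 2478 under HRG and 6171, 4487 and 4333 under PTN. Its PTN arrays stood above all others, 2.31-fold above HRG (adjusted p = 0.000314) and 1.85-fold above BSN (adjusted p = 0.00417), and HRG and BSN overlapped (adjusted p = 0.267). A second probe set of Cks1b was called only against HRG, at 1.68-fold (adjusted p = 0.00439). Cks2 and Ccnb2 (cyclin B2) fell against PTN by 1.76-fold and 1.69-fold and were not called against BSN (adjusted p = 0.113 and 0.213). Without HRG replicate 3, Ccnb2 was not called against PTN (adjusted p = 0.0707). Cdca3, which helps degrade the Wee1 kinase that holds Cdk1 inactive, had 11689, 10395 and 12801 under BSN, 8311, 8130.1 and 7040.2 under HRG and 10438, 12243 and 12039.9 under PTN. It fell 1.48-fold against each other medium (adjusted p = 0.0105 and 0.00734), with BSN and PTN almost level. Cdc25b, a phosphatase that activates Cdk1, fell 1.53-fold and 1.71-fold (adjusted p = 0.0115 and 0.00187). Leaving out BSN replicate 3 or HRG replicate 3 ended the call of Cdca3 against BSN (adjusted p = 0.0559 and 0.0587), and leaving out BSN replicate 3 ended that of Cdc25b (adjusted p = 0.0537).

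All 3 mitotic kinases fell with heregulin in both comparisons. Melk, a kinase that is abundant in dividing progenitor cells, had 4952, 5959.6 and 5869 under BSN, 3267, 3309.5 and 2312 under HRG and 9103, 7364 and 9385 under PTN. Its 3 media did not overlap, with falls of 1.90-fold against BSN (adjusted p = 0.00208) and 2.92-fold against PTN (adjusted p = 2.87e-05). PTN was 1.54-fold above BSN (adjusted p = 0.0188), a call that was lost without BSN replicate 1 or PTN replicate 3 (adjusted p = 0.0759 and 0.0697). Plk1, a kinase needed for the spindle and for mitotic exit, had 2732, 2500.2 and 2752 under BSN, 1904, 1788 and 1846 under HRG and 2756, 2968 and 3164 under PTN. It fell 1.44-fold against BSN (adjusted p = 0.0118) and by 0.68 on the log2 scale against PTN (adjusted p = 0.00163), and the call against BSN was lost without HRG replicate 2 (adjusted p = 0.0524). Aurka, the Aurora kinase of the spindle poles, had 1551, 1637 and 1652 under BSN, 1041, 1129.6 and 1009 under HRG and 1929, 2004 and 2012 under PTN. The media did not overlap, and it fell 1.52-fold and 1.86-fold (adjusted p = 0.0069 and 0.000284), while the 1.23-fold higher signal in PTN than in BSN did not pass the test (adjusted p = 0.122). Under quantile normalization and median centring Aurka was called higher in PTN than in BSN (adjusted p = 0.0255 and 0.0321).

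The chromosomal passenger complex joins Aurora B (Aurkb) to the centromere through borealin (Cdca8) and survivin (Birc5). Aurkb had 2951, 2990.1 and 2769.8 under BSN, 1536, 1638 and 1310.1 under HRG and 4324, 5221 and 3798 under PTN. The media did not overlap, with falls of 1.94-fold (adjusted p = 0.000759) and 2.94-fold (adjusted p = 1.13e-05) and a 1.52-fold higher signal in PTN than in BSN (adjusted p = 0.0124). That last call was lost without BSN replicate 3 or PTN replicate 2 (adjusted p = 0.0507 and 0.0545). Cdca8 had 3807, 4483 and 4749 under BSN, 2591, 2228 and 1995 under HRG and 4157, 3829 and 5019.6 under PTN. It fell 1.91-fold against BSN and 1.90-fold against PTN (adjusted p = 0.00117 and 0.000826), and BSN and PTN overlapped.

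Birc5 was also lower with heregulin but was not called. Its signal was 3338, 1966 and 2003 under BSN, 1928, 1901 and 1336 under HRG and 2200.5, 3516 and 2133 under PTN. HRG was below the others on every array, but 1 array stood high in each of BSN and PTN, and no comparison passed (adjusted p = 0.232 against BSN and 0.101 against PTN). With array weights Birc5 was called lower in HRG than in PTN (limma, adjusted p = 0.0209). Cenpe, the kinesin that carries chromosomes along the spindle, had 316, 332 and 227 under BSN, 34.7, 75.6 and 255 under HRG and 1251, 952 and 692 under PTN. The PTN arrays lie above all others, and BSN and HRG overlap. The BSN and HRG signals lie below the arrays' 40th percentiles, so no fold is given. Because Cenpe passed the filter through the PTN arrays alone, its calls against PTN support no difference and are given only within the counts. The call between PTN and BSN (adjusted p = 0.0496) was also lost when any 1 array of BSN or PTN, or HRG replicate 2, was left out (adjusted p = 0.0551 to 0.144).

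The spindle checkpoint delays anaphase until every chromosome is attached. Bub1b encodes BubR1, which holds back the anaphase-promoting complex. Its signal was 3047, 2930.3 and 2720.5 under BSN, 1387, 1014.5 and 1376 under HRG and 8351, 4107 and 4177 under PTN. The media did not overlap, and PTN replicate 1 stood far above the rest. It fell 2.31-fold against BSN (adjusted p = 0.00384) and 4.16-fold against PTN (adjusted p = 4.8e-05). Its 1.80-fold higher signal in PTN than in BSN (adjusted p = 0.0222) was lost as a call without any 1 BSN array (adjusted p = 0.0514 to 0.0773). Bub3, a partner of BubR1 at the kinetochore, had 21566, 21369 and 25689.8 under BSN, 19503, 19629.9 and 22612 under HRG and 24972, 32225 and 32471 under PTN. BSN overlapped both other media, and Bub3 was called only against PTN, 1.44-fold lower in HRG (adjusted p = 0.0119). Without PTN replicate 1, Bub3 was also called higher in PTN than in BSN (adjusted p = 0.00839). Mad2l1 (Mad2) fell 1.43-fold against BSN (adjusted p = 0.0398) and 1.80-fold against PTN (adjusted p = 0.00152). The former was lost under quantile normalization and median centring (adjusted p = 0.0726 and 0.0753) and without any 1 BSN or HRG array (adjusted p = 0.0527 to 0.157) or PTN replicate 3 (adjusted p = 0.0504).

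Anaphase begins when Cdc20 activates the anaphase-promoting complex, whose ubiquitin comes from Ube2c and whose target securin (Pttg1) restrains separase. The Cdc20 signal was 2661, 2728 and 3391 under BSN, 1937, 1567 and 1346 under HRG and 3314, 3918 and 4029 under PTN. It fell 1.81-fold against BSN (adjusted p = 0.00315) and 2.33-fold against PTN (adjusted p = 0.000158). Cdc20 had 5 probe sets, of which 2 were never above the 40th percentile. Neither of the 2 other dim ones was called lower in HRG than in BSN. The brighter of these had 626, 1101 and 846 under BSN, 675, 538 and 462 under HRG and 1734, 1411 and 1296 under PTN. Every HRG signal of it was below the array's 40th percentile. It passed the filter only with the PTN arrays, so its differences from PTN are given as signals, without a fold or a p. The brightest probe set was not called between PTN and BSN (adjusted p = 0.132).

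Ube2c had 2514, 2599 and 2967 under BSN, 2104, 2588 and 2489.8 under HRG and 7224, 4060.3 and 4418 under PTN. HRG and BSN overlapped (adjusted p = 0.632), and PTN was 2.12-fold above HRG (adjusted p = 0.00151) and 1.88-fold above BSN (adjusted p = 0.00614). Pttg1 had 2518, 2035 and 2928 under BSN, 1054, 1258 and 946 under HRG and 2745, 1589 and 1119 under PTN. It fell 2.27-fold against BSN (adjusted p = 0.00864), whereas the PTN arrays overlapped both other media and Pttg1 was not called against PTN (1.57-fold lower in HRG, adjusted p = 0.0934). Under quantile normalization, or without PTN replicate 3, it was called against PTN (adjusted p = 0.0429 and 0.0155), and with array weights or without PTN replicate 1 it was called lower in PTN than in BSN (adjusted p = 0.0122 and 0.0067).

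**Figure D4:**
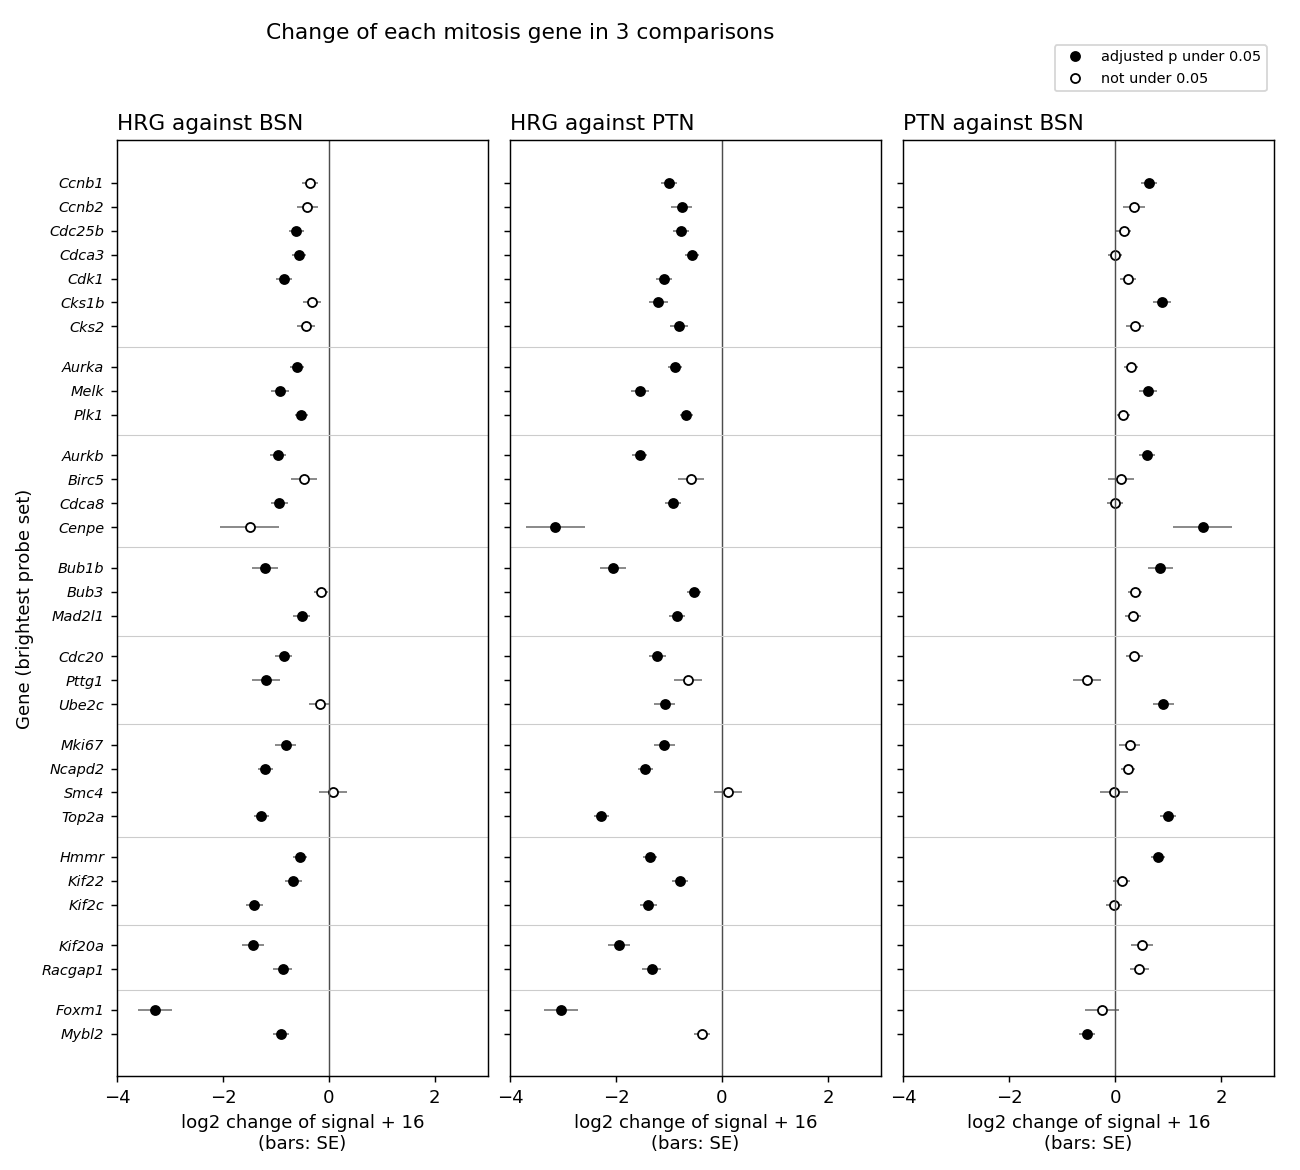
Log2 change of each of the 31 mitosis genes in 3 comparisons (horizontal axis, log2 of signal + 16, bars are the SE from limma; n = 3 arrays a group), with filled points at an adjusted p under 0.05. Filled points lie left of 0 for 22 genes in the panel of HRG against BSN and for 27 in that of HRG against PTN. In the third panel 9 lie right of 0 and 1 left.

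The spindle motors and microtubule proteins fell with heregulin against both media. Kif2c, which takes apart microtubules at the centromere, had 2680.4, 2938 and 2086 under BSN, 1027, 967 and 856 under HRG and 2257, 2629 and 2663 under PTN. Its BSN and PTN arrays overlapped, while HRG was 2.66-fold lower than BSN (adjusted p = 6.23e-05) and 2.62-fold lower than PTN (adjusted p = 4.18e-05). Hmmr, a spindle protein that binds hyaluronan outside the cell, had 2153, 1709.8 and 1790.0 under BSN, 1251, 1359 and 1248 under HRG and 3377, 3415 and 3140.2 under PTN. Its media did not overlap, with falls of 1.45-fold against BSN (adjusted p = 0.0158) and 2.56-fold against PTN (adjusted p = 1.51e-05). PTN was 1.76-fold above BSN (adjusted p = 0.00137).

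A dimmer Hmmr probe set was not called between HRG and BSN (adjusted p = 0.694). Leaving out BSN replicate 1 or HRG replicate 3 also ended the Hmmr call against BSN (adjusted p = 0.0762 and 0.0628). Kif22, a motor that pushes chromosome arms to the spindle's middle, had 3543, 4082 and 3321 under BSN, 2184, 2673 and 2030.5 under HRG and 4497, 4035 and 3426 under PTN. It fell 1.59-fold and 1.73-fold (adjusted p = 0.0103 and 0.00244), and leaving out BSN replicate 2 or HRG replicate 3 ended the call against BSN (adjusted p = 0.0519 and 0.0564).

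Cytokinesis, the splitting of the cell body, was represented by Kif20a, a motor of the central spindle, and Racgap1, a subunit of centralspindlin. Kif20a had 6579, 6892 and 6663 under BSN, 2999.9, 2591 and 1947 under HRG and 13517, 7560.1 and 8430.4 under PTN. It fell 2.70-fold against BSN (adjusted p = 0.000492) and 3.83-fold against PTN (adjusted p = 2.96e-05). Every PTN array was above every BSN array, and the 1.42-fold difference did not pass the test (adjusted p = 0.104), with PTN replicate 1 well above its group. Racgap1 had 10551, 10369.6 and 9566 under BSN, 5947, 6631 and 4343 under HRG and 11009, 15810.2 and 15472 under PTN. It fell 1.83-fold against BSN (adjusted p = 0.005) and 2.50-fold against PTN (adjusted p = 0.000163). Without PTN replicate 1, Racgap1 was called higher in PTN than in BSN (adjusted p = 0.0124).

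The last group holds FoxM1 and B-Myb (Mybl2), the transcription factors that raise mitotic genes. Foxm1 had 1782, 2040.2 and 1788 under BSN, 235, 175 and 136 under HRG and 2877, 1101 and 1231.5 under PTN. Every HRG signal was below its array's 40th percentile and every BSN and PTN signal above it. Foxm1 passed the filter through BSN and PTN, so its lower signal in HRG is given as signals only, without a fold or a p. BSN and PTN overlapped, with PTN replicate 1 well above its group. Without PTN replicate 1, Foxm1 was called lower in PTN than in BSN (adjusted p = 0.0492).

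Mybl2 followed another order, with 1401, 1625 and 1665 under BSN, 856, 854 and 771 under HRG and 1208, 1002 and 1035 under PTN. The media did not overlap, and BSN was highest. It fell 1.87-fold with heregulin against BSN (adjusted p = 0.00154) and was 1.44-fold lower in PTN than in BSN (adjusted p = 0.0294). Against PTN the 1.30-fold lower signal in HRG did not pass (adjusted p = 0.0951). Mybl2 changed its calls with scaling: under quantile normalization it was called against PTN (adjusted p = 0.0226) and lost as a call between PTN and BSN (adjusted p = 0.118). The latter was also lost without BSN replicate 2 or 3 or PTN replicate 2 or 3 (adjusted p = 0.0801 to 0.107).

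**Figure D5:**
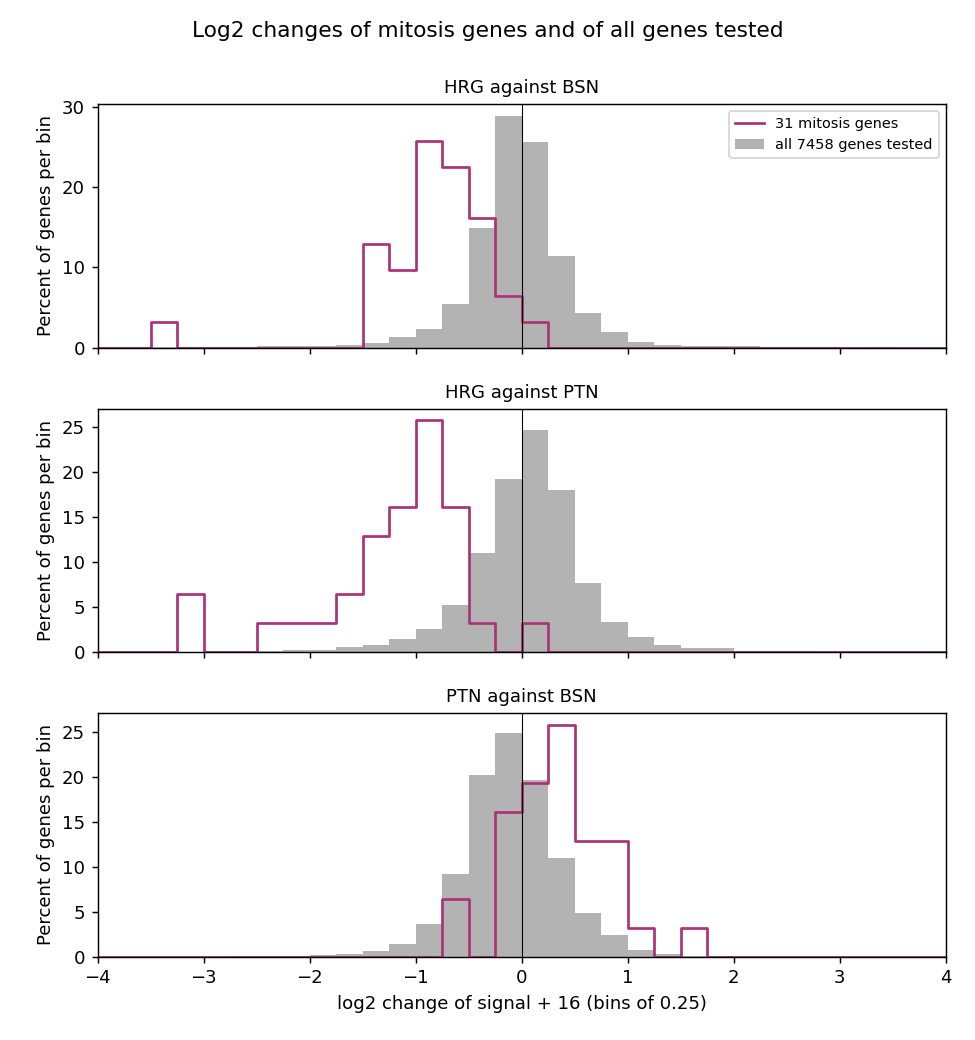
Distribution of log2 changes over the 31 mitosis genes beside all 7458 genes tested, for the 3 comparisons (horizontal axis, log2 change; shares of genes on the vertical axis). The mitosis genes have medians of -0.81, -1.08 and 0.34, beside -0.04, 0.08 and -0.11 for all genes.

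Spread within a group differed between genes and media. The median coefficient of variation over the 31 genes was 10.7% under BSN, 14.6% under HRG and 14.2% under PTN. It passed 30% for 1 gene under BSN, 2 under HRG and 7 under PTN, and was highest for Birc5 in BSN (32.1%), Cenpe in HRG (96.2%) and Foxm1 in PTN (57%).

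Genes of the rest of the cell cycle were read from lists that hold none of the 31 genes. The genes named from these lists were picked among those called, by the 2 lowest and 2 highest t values of limma in a comparison. They are extremes and are not typical of their list. Of 68 tested genes in a list of other mitotic functions, 19 (27.9%) fell with heregulin against BSN and 1 rose, and 30 (44.1%) fell and 3 rose against PTN. In PTN 16 (23.5%) were higher than in BSN and 2 were lower. Of all genes tested, 9.16% fell and 7.07% rose with heregulin against BSN, and 12.1% fell and 14.7% rose against PTN. In PTN 9.08% of all genes tested were higher than in BSN and 13.5% lower. The median log2 changes of the 68 genes were -0.23, -0.35 and 0.13. Tacc3, which stabilises spindle fibres, had 2698 ± 623 under BSN, 969 ± 62.4 under HRG and 3948 ± 204 under PTN (SD, n = 3), and fell 2.71-fold and 4.02-fold (adjusted p = 8.36e-05 and 3.6e-06). Spc25, a subunit of the Ndc80 complex of the kinetochore, had 5135 ± 645, 2815 ± 148 and 9273 ± 609 and fell 3.28-fold against PTN (adjusted p = 2.21e-06). Its partner Spc24 fell 2.17-fold against BSN (adjusted p = 0.000306). Zwint, a kinetochore protein, went the other way, with 38118 ± 2659 under BSN, 57592 ± 5999.7 under HRG and 43822 ± 5561 under PTN and a 1.51-fold rise against BSN (adjusted p = 0.00495). Wee1 and Anapc13 were also higher with heregulin, 2.17-fold and 1.355-fold against PTN (adjusted p = 0.019 and 0.0298). Dlgap5 and Kif15, both spindle proteins, were 2.07-fold and 1.82-fold higher in PTN than in BSN (adjusted p = 0.000282 and 0.000521).

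DNA replication genes were counted in the same way. Of 40 tested S phase genes, 18 (45%) fell and 1 rose with heregulin against BSN, and 26 (65%) fell and 0 rose against PTN. Of all genes tested, 9.16% fell and 7.07% rose against BSN, and 12.1% fell and 14.7% rose against PTN. At an unadjusted p under 0.05, limma gave 31 lower and 0 higher against PTN, beside the shares of all genes given above. In PTN 12 (30%) were higher than in BSN and 0 lower, with 17 and 1 at an unadjusted p under 0.05, where limma gave 13.8% of all genes higher and 22.9% lower. Chaf1a, a histone loader at the replication fork, had 3839 ± 266 under BSN, 1283 ± 342 under HRG and 3429 ± 306 under PTN and fell 3.04-fold against BSN (adjusted p = 6.23e-05). Mcm5, a subunit of the replicative helicase, had 5087 ± 37.4, 2459.6 ± 391 and 7035 ± 380.4 and fell 2.08-fold and 2.87-fold (adjusted p = 0.000207 and 6.8e-06). Orc4, a subunit of the origin recognition complex, rose 1.79-fold with heregulin against BSN (adjusted p = 0.000692). Gins1, of the helicase complex, and Dut, which keeps uracil out of DNA, were 2.92-fold and 2.24-fold higher in PTN than in BSN (adjusted p = 0.000103 and 0.000309).

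G1 genes, which act on the decision to enter the cycle, were mixed. Of 15 tested, 5 (33.3%) fell and 2 (13.3%) rose with heregulin against BSN, where 9.16% of all genes tested fell and 7.07% rose. Against PTN, 5 (33.3%) fell and 3 (20%) rose, beside 12.1% and 14.7% of all genes tested. In PTN 3 (20%) were higher and 2 (13.3%) lower than in BSN, beside 9.08% and 13.5% of all genes tested. Mycn, a growth regulator of progenitor cells, had 3120.2 ± 316 under BSN, 746 ± 181 under HRG and 6902 ± 791 under PTN and fell 4.18-fold and 9.20-fold (adjusted p = 6.18e-06 and 1.28e-07). Ccnd1, cyclin D1, fell 2.39-fold and 2.91-fold (adjusted p = 3.57e-05 and 4.39e-06). Myc rose 2.73-fold against BSN and 3.12-fold against PTN (adjusted p = 0.00305 and 0.000858). Rb1, the retinoblastoma protein that restrains S phase entry, rose 3.95-fold and 1.96-fold (adjusted p = 2.66e-05 and 0.00332). Cdkn1a, the kinase inhibitor p21, was 2.37-fold lower in PTN than in BSN (adjusted p = 6.24e-05).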

How the data were processed

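Expression was measured on 9 arrays. The deposited intensity values, 1 per probe set, are the authors' own, made with GCOS, per the submitters' processing notes, whose version and parameters no source used here gives. RNA had been amplified by in vitro transcription in 2 rounds, per the labels' protocols, which shortens transcripts toward the 3' end. Of 15923 probe sets 57 controls were left out. The values were used as log2(signal + 16), so a fold understates the change of dim genes. A probe set was kept if it exceeded its array's 40th percentile on at least 3 arrays, which left 10106. Symbols came from the platform annotation (12783 probe sets with 1 symbol, 312 with several, 2771 not listed), and the brightest kept probe set stood for a gene. Groups were compared with limma 3.58.1 (lmFit and eBayes with an intensity trend, R 4.3.3) on all 9 arrays with 6 residual degrees of freedom, adjusting p-values by Benjamini-Hochberg over all kept probe sets; a call is an adjusted p under 0.05. The fit was tested on simulated data. Figures used Python 3.11.15 and matplotlib 3.10.9. For each role the genes named with full values were those with the highest signal, the largest and the smallest change between HRG and PTN, and genes whose probe sets disagreed in their calls; others are named with less detail. The gene list, the other lists, the marker lists and the promoter words were chosen with earlier results of these data known. Arrays with the same replicate number were not paired in the main fit, and the labels state no pairing. Their deviations correlated at 0.266, 0.332 and 0.118 between HRG and PTN. The replicate block, an alternative, fitted the replicate number over all 9 arrays. Alternatives tried were quantile normalization, median centring, pseudocounts of 1 and 64, other filters, no intensity trend, array weights, only the arrays of the groups compared, the replicate block, other probe set rules, a threshold of 0.01 and leaving out each array.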

Additional observations from a re-analysis of the deposited data

How the results depend on the processing

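The count of mitosis genes called was 19 to 24 of 31 for HRG against BSN and 26 to 29 for HRG against PTN over the settings with all 31 genes at an adjusted p under 0.05, and 15 and 25 at an adjusted p under 0.01. The counts without Cenpe and Foxm1 (21, 25 and 9 of 29) were added after seeing the data. For PTN against BSN the count was 8 to 15 at 0.05 with all arrays, 6 to 14 when 1 array was left out (6 without BSN replicate 3, 14 without PTN replicate 1) and 5 at 0.01. Shares of all genes called were counted for the main fit, quantile normalization and median centring only. The other counts of mitosis genes stand without such a share. With the replicate block, the only paired analysis, the counts were 22, 27 and 10, as without it. The block ended the call of Cenpe and gave one for Bub3 in PTN against BSN (adjusted p = 0.0631 and 0.0316). Between PTN and BSN the deviations of arrays with the same number correlated at -0.097, -0.011 and -0.064. The median change of the mitosis genes was -0.87 to -0.60 in HRG against BSN when 1 array was left out, and -0.68 when the probe sets of a gene were averaged. In HRG against PTN it was -1.12 to -0.95 when 1 array was left out, and in PTN against BSN it was 0.46 under median centring. The genes whose every array lay below or above the other group, counted under 2 scalings chosen after seeing the data, were 25, 29 and 17 under quantile normalization (16.3%, 16.5% and 14.4% of all genes) and 24, 29 and 22 under median centring (13.6%, 18.6% and 19.5% of all genes). Changes that turned direction were all uncalled. Left-out arrays gave Smc4 -0.021 to 0.24 in HRG against BSN, -0.13 to 0.43 in HRG against PTN and -0.34 to 0.21 in PTN against BSN. In PTN against BSN they gave Birc5 -0.12 to 0.36, Cdca3 -0.083 to 0.067, Cdca8 -0.12 to 0.078, Foxm1 -0.67 to 0.013 and Kif2c -0.16 to 0.085. With array weights Smc4 was -0.11 in HRG against PTN, and Cdca3, Kif2c and Smc4 were 0.048, 0.034 and 0.14 in PTN against BSN. Quantile normalization gave Cdca8 0.014, Kif2c 0.10 and Smc4 0.20, and median centring gave Cdca3, Cdca8, Kif2c and Smc4 0.12, 0.12, 0.11 and 0.10, all in PTN against BSN. The cause of these shifts was not tested. PTN replicate 1 had the lowest mean correlation with its own group, 0.946, beside 0.962 to 0.976 for the other arrays. Signals below the 40th percentile, as of Cenpe in BSN and HRG and of Foxm1 in HRG, are the least certain.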
